A study of Mus musculus with 6 samples.

Results

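The 10 genes followed here encode neutrophil granule proteins, neutrophil cytosolic proteins and chemoattractant receptors, and were measured in RNA-seq libraries of cultured mouse eosinophils. They were chosen by name, as S100a8, S100a9, Mpo, Elane, Camp, Ngp, Ltf, Lcn2, Fpr1 and Fpr2. All 10 had a row in the deposited tables, of 22548 gene symbols in all, and each was represented by 1 RefSeq transcript. Low-density bone marrow cells of wild-type BALB/c mice, 4 to 8 weeks old, had been cultured for 14 days. Every group had received stem cell factor and FLT3 ligand (100 ng/ml each) until day 4, then IL-5 (10 ng/ml) until day 14. The 6 groups were cells without further cytokine, cells with IL-4 at 10 ng/ml and cells with IL-33 at 10 ng/ml, each for 1 h or for 4 h. The labels give each group 1 library, and whether cells of several mice were pooled is not given in the sources used here. No difference below therefore has a replicate check or a p-value.

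Neutrophils and eosinophils are granulocytes that share a bone marrow origin. The neutrophil makes its granule proteins in sequence as it matures. Primary (azurophil) granules, which hold myeloperoxidase and serine proteases, are filled at the promyelocyte stage, and secondary (specific) granules, which hold lactoferrin and the cathelicidin, at the myelocyte stage. The cytosolic S100 proteins and the formyl peptide receptors mark later cells, and monocytes also make them. Because transcripts of primary granule genes normally disappear before those of secondary granule genes, the genes together are used to place neutrophil-lineage cells by stage.

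Levels are given as FPKM, reads scaled by transcript length and library size, so that genes can be compared within a library. Each deposited table paired 1 treated library with the untreated library of its time and had its own scale. The untreated values of the IL-33 tables were 0.945 times (1 h) and 0.947 times (4 h) those of the IL-4 tables. Untreated levels below come from the IL-4 tables unless a change with IL-33 is described, and each change is taken within 1 table. Levels with IL-33 come from the IL-33 tables. Series of levels over the 6 libraries, and ratios of highest to lowest level, therefore cross tables of unlike scale and are not changes. A change is the log2 ratio of FPKM + 1, and a gene is called higher or lower from an absolute log2 change of 1 on, if it reached 1 FPKM in either library. The read number behind each value was estimated from the FPKM that 1 read was worth. It ran from 171 reads (Fpr1, untreated, 4 h) to 44055 (S100a9, IL-33 4 h), with a counting error of 7.64% to 0.476%, which leaves out the variation between cultures. Relative to its untreated partner, the IL-4 library was 0.975 times as deep at 1 h and 1.24 times at 4 h. The IL-33 library was 1.16 and 1.89 times as deep at these times.

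The labelled cell type was checked against eosinophil transcripts. All 10 eosinophil genes checked were detected in all 6 libraries and their sum was 7.85% to 10.0% of the total FPKM, led by Prg2 (eosinophil major basic protein) at 41838 to 52228. Together, the 10 genes studied held 0.803% to 1.13% of the total. The plot of gene list shares shows these sums beside those of other blood cells.

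**Figure D1:**
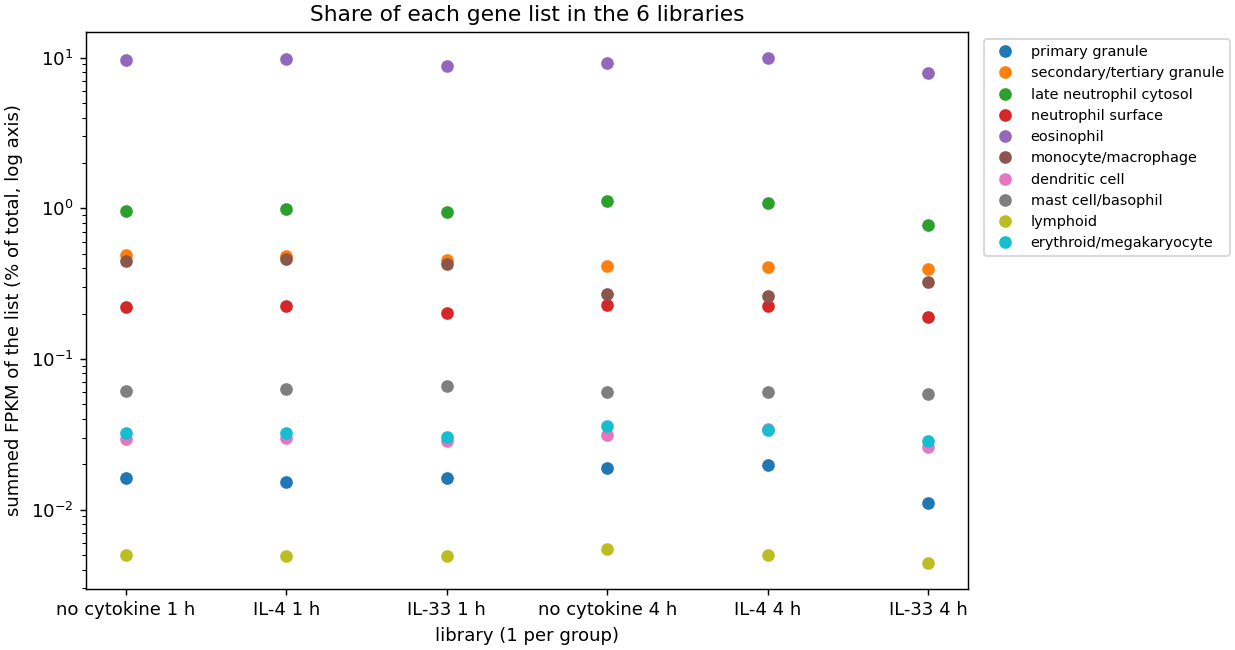
Summed FPKM of each of 10 gene lists as a percentage of the library's total (log axis) in the 6 libraries, 1 point per list and library. The eosinophil list holds 7.85% to 10.0% of the total, the late neutrophil cytosolic list 0.770% to 1.12% and the primary granule list 0.0111% to 0.0199%.

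The promoter sequences of 5 of the genes are shown first, chosen by the sign of their change after 4 h of IL-33. Of the 5, only Fpr1 reached an absolute log2 change of 1, and the change of Ngp was small (-0.15). Fpr1, Fpr2 and Lcn2 had positive log2 changes after 4 h of IL-33, whereas Elane and Ngp, as examples of primary and secondary granule genes, had negative ones. Each sequence is the 250 bases before the annotated start, 5′ to 3′ on the gene's own strand, from RefSeq on GRCm38.p6, which is not the mm9 build of the expression tables. Capitals mark matches on either strand to 4 motifs, which are TTGCNNAA for C/EBP factors, GAGGAA for PU.1, TTC and GAA with 4 bases between them for STAT6 and the NF-kB consensus.
Fpr1 (chr17:17883940-17884189, minus strand): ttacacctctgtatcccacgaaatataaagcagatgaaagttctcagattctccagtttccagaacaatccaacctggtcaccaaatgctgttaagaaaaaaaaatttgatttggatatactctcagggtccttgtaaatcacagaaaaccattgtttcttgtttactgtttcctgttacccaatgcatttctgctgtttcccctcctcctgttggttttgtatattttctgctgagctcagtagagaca
Fpr2 (chr17:17887574-17887823, plus strand): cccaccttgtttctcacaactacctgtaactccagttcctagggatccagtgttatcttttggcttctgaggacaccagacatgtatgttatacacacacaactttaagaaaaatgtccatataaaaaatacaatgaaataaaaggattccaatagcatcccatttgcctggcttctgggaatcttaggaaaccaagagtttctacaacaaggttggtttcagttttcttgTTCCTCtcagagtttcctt
Lcn2 (chr2:32387740-32387989, minus strand): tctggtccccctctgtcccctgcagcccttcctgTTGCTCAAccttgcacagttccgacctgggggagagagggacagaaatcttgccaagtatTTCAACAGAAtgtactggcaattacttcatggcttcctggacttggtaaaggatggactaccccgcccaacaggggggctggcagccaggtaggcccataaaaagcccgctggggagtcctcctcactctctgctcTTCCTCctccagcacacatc
Elane (chr10:79886062-79886311, plus strand): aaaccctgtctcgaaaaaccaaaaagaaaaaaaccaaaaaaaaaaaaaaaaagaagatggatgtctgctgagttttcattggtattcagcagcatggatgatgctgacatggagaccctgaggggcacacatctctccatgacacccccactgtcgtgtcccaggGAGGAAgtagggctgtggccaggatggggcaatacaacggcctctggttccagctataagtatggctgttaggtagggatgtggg
Ngp (chr9:110419558-110419807, plus strand): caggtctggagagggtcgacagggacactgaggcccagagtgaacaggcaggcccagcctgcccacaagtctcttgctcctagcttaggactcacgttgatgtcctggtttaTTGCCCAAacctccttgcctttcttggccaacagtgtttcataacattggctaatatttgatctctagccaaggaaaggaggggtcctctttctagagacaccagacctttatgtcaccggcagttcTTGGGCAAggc

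All 10 genes had a promoter entry, and every window was searched. The C/EBP letters were found in Ngp (2 matches), S100a9, Ltf and Lcn2, against 9.56% of the 32851 promoter windows of all genes. Those of PU.1 were found in S100a8 and Mpo (2 matches each) and in Elane, Ltf, Lcn2 and Fpr2, against 23.3% of windows. The STAT6 letters were found in Mpo and Lcn2 (5.85% of windows), and the NF-kB consensus, present in 7.25% of windows, in none of the 10. These matches describe letters in a short window and say nothing of whether a factor binds there or elsewhere.

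The S100 genes were the most abundant of the 10. S100a8 and S100a9 encode the subunits of calprotectin, a calcium- and zinc-binding antimicrobial complex, and lie on chromosome 3 (mm9, 90472993 to 90473956 and 90496555 to 90499613). S100a9 stood at 3333 FPKM in untreated cells of 1 h, 3385 with IL-4 and 3364 with IL-33 at 1 h, 3968 in untreated cells of 4 h, 4119 with IL-4 and 2910 with IL-33 at 4 h. S100a8 stood at 2415, 2484, 2517, 3005, 2798 and 2004 FPKM in the same order. Both were lowest in the library of IL-33 at 4 h and highest in a 4 h library without IL-33. S100a9 ranked between 15th and 20th of all genes by level, and S100a8 between 21st and 40th. Their ratio, S100a9 over S100a8, was between 1.32 and 1.47 in all 6 libraries, and together they made up 80.7% to 85.4% of the summed level of the 10 genes.

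Secondary granule genes came next by level. Ngp, the neutrophilic granule protein of the cathelicidin-related family (chromosome 9, mm9, 110322312 to 110325516), stood at 807 FPKM in untreated cells of 1 h, 794 with IL-4 and 768 with IL-33, and at 748, 774 and 639 FPKM at 4 h in the same order. Lcn2 (lipocalin 2, which withholds iron from bacteria by binding their siderophores; chromosome 2, mm9, 32240157 to 32243259) stood at 244, 228 and 254 FPKM at 1 h and at 194, 183 and 302 at 4 h. Ngp was lowest, and Lcn2 highest, with IL-33 at 4 h. On the scale of the IL-33 table of 1 h, untreated Ngp was 762 FPKM, against 768 with IL-33. Camp, the precursor of the antimicrobial cathelicidin peptide (chromosome 9, mm9, 109749891 to 109751970), had the smallest ratio of highest to lowest level of the 10 (1.23), from 82.7 FPKM (IL-4 4 h) to 101.6 (IL-33 1 h) with a median of 95.3. Ltf, the iron-binding lactoferrin (chromosome 9, mm9, 110921796 to 110945270), ranged from 49.8 FPKM (IL-33 4 h) to 89.4 (IL-33 1 h) with a median of 83.8.

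Primary granule genes were far less abundant than the S100 genes. Mpo, the myeloperoxidase that makes hypochlorous acid (chromosome 11, mm9, 87607286 to 87617914), stood at 29.2 FPKM untreated, 25.95 with IL-4 and 29.9 with IL-33 at 1 h, and at 29.5, 35.8 and 20.5 at 4 h. Elane, which encodes neutrophil elastase (chromosome 10, mm9, 79349057 to 79350961), stood at 30.1, 27.0 and 30.01 FPKM at 1 h and at 38.0, 38.5 and 20.5 at 4 h. Both genes were lowest with IL-33 at 4 h and highest with IL-4 at 4 h. On the scale of the IL-33 table of 1 h, untreated Elane was 28.5 FPKM, against 30.01 with IL-33. The ratio of Elane to Mpo was 1.00 to 1.29 over the libraries.

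The receptor genes were the least abundant of the 10 in every library but that of IL-33 at 4 h, in which Mpo and Elane were lower. Fpr1 and Fpr2 encode G protein-coupled receptors that draw phagocytes towards formylated bacterial and mitochondrial peptides, and they are neighbours on chromosome 17 (mm9, 18013435 to 18020903 and 18024788 to 18030916). Fpr1 stood at 10.97 FPKM untreated, 12.7 with IL-4 and 16.3 with IL-33 at 1 h, and at 8.83, 12.0 and 30.4 at 4 h. Fpr2 stood at 13.8, 14.5 and 14.1 FPKM at 1 h and at 13.05, 12.7 and 25.7 at 4 h. The library of IL-33 at 4 h was the highest for both genes. For 8 of the 10 genes the highest level was less than 2 times the lowest, and the exceptions were Fpr1 (3.44 times) and Fpr2 (2.02 times). The plot of levels by gene and table shows the order of the 10 genes, with the S100 genes at the top in every library.

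**Figure D2:**
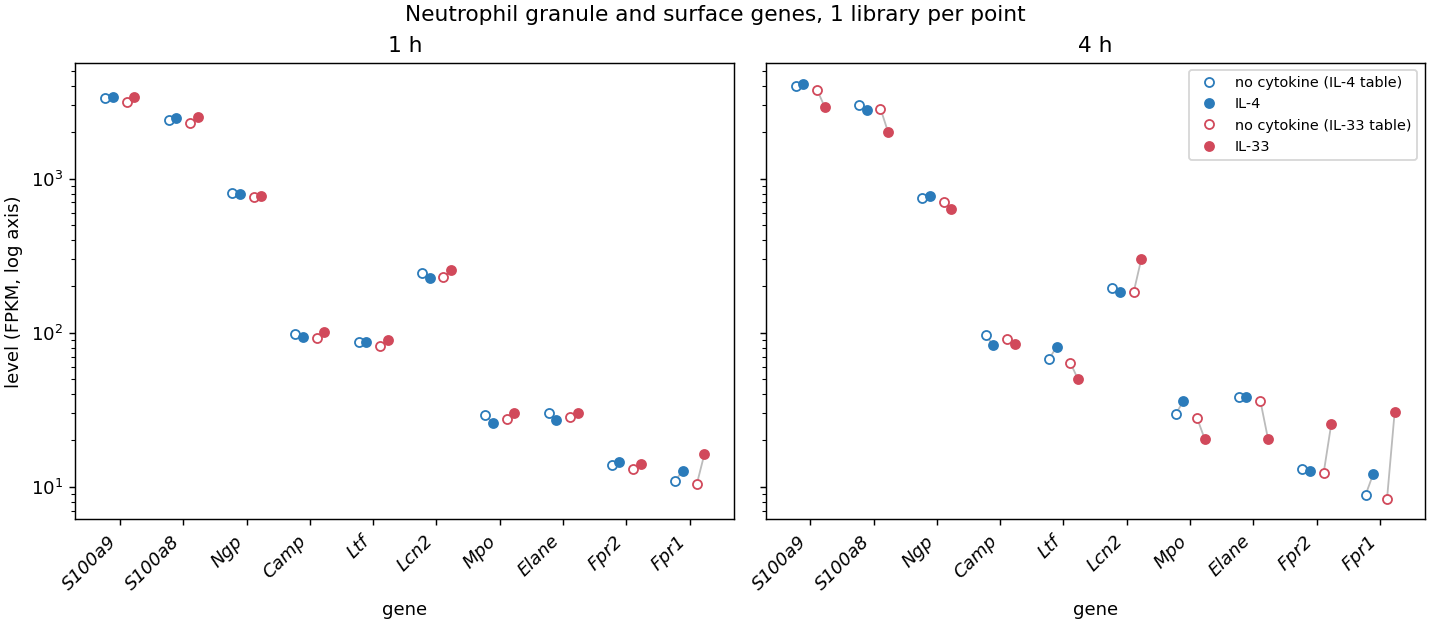
FPKM (log axis) of the 10 genes at 1 h (left) and 4 h (right), with open points for the untreated library and filled points for IL-4 (blue) or IL-33 (red), 1 library per point, each pair from 1 deposited table. Most pairs lie close together, while Fpr1 with IL-33 at 4 h stands at 30.4 against 8.37 FPKM.

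IL-33 for 4 h gave the widest spread of changes among the 10 genes, from -0.78 to 1.75. Fpr1 was higher, at 30.4 FPKM against 8.37 in the untreated library of the same table (log2 change 1.75, 3.64-fold of FPKM, an estimated 1174 against 171 reads). Its change was 206th from the top of 10803 genes compared. Fpr2 stood at 25.7 against 12.4 FPKM (849 against 216 estimated reads), a log2 change of 0.998 that lay just under the rule and passed it with a pseudocount of 0.1 (1.05). Lcn2 stood at 302 against 184 FPKM (log2 change 0.71) and did not pass. Of the 10 genes, 1 was higher and none lower, where 4.15% of all genes compared were higher and 1.38% lower.

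The other 7 of the 10 genes had negative log2 changes with IL-33 at 4 h, none past the rule. Elane stood at 20.5 against 36.0 FPKM (-0.78), S100a8 at 2004 against 2847 (-0.51), Mpo at 20.5 against 27.9 (-0.43) and S100a9 at 2910 against 3759 (-0.37). For Ltf the log2 change was -0.35, for Ngp -0.15 and for Camp -0.12. The order followed the roles of the genes only in part, with the primary granule and S100 genes below the secondary granule genes Ngp and Camp, and the receptors above all others. The median over the 10 was -0.25, against -0.03 over all genes compared, of which 53.5% had negative changes. In the plot of all changes, the 7 genes lie between the main peak and its left flank, and Fpr1, Fpr2 and Lcn2 to its right.

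**Figure D3:**
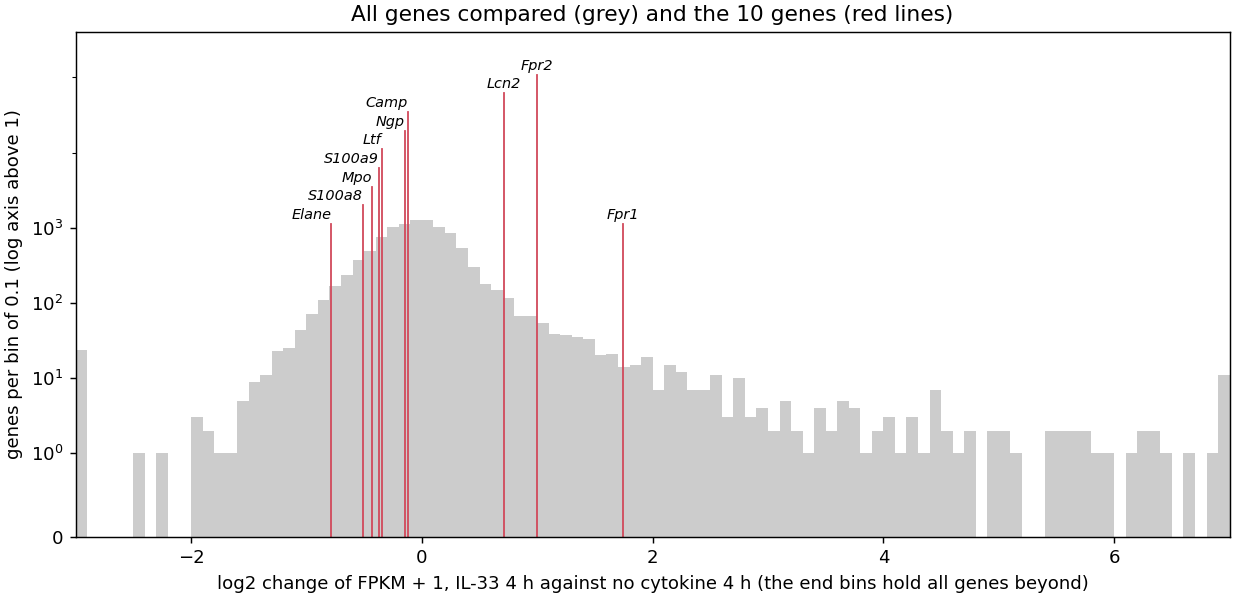
Number of genes (grey bars, log axis above 1) by log2 change of FPKM + 1 with IL-33 at 4 h, for 10803 genes, with the 10 genes as red lines. Elane is the leftmost at -0.78 and Fpr1 the rightmost at 1.75.

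IL-33 for 1 h gave small positive log2 changes in all 10 genes, none past the rule, where 2.36% of all genes compared were higher and 0.669% lower. Fpr1 had the largest, at 16.3 against 10.4 FPKM (0.60, an estimated 510 against 281 reads). The others lay between 0.01 (Ngp) and 0.14 (S100a8), Fpr2 at 0.10 and Lcn2 at 0.14 among them. The median was 0.11, against -0.01 over all genes. Against the untreated library of 4 h, from another table, S100a8 (-0.18), S100a9 (-0.16) and Elane (-0.26) had negative values instead. Thus Fpr1 had a positive change at both times, while Fpr2 and Lcn2 had changes above 0.5 at 4 h alone of the times measured. The 1 h and 4 h changes come from different tables, and the difference between them was not tested.

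None of the 10 genes reached the rule after IL-4, for 1 h or for 4 h. Genes higher and lower made up 0.47% and 0.358% of those compared at 1 h, and 0.646% and 0.351% at 4 h. At 4 h the largest change was again in Fpr1, at 12.0 against 8.83 FPKM (0.41, an estimated 292 against 172 reads), with Mpo at 35.8 against 29.5 (0.27) and Ltf at 80.8 against 67.1 (0.26). Camp stood at 82.7 against 96.5 FPKM (-0.22), and the other 6 lay between -0.10 and 0.05. At 1 h the changes ran from -0.16 in Mpo to 0.20 in Fpr1. IL-4 and IL-33 share the untreated library of their time, so their changes in a gene are not independent of each other.

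Time in culture without further cytokine was compared across the untreated libraries of the IL-4 tables, which were scaled separately. None of the 10 genes passed the rule between 1 h and 4 h, where 0.879% of all genes were higher and 1.56% lower at 4 h. Elane, S100a8 and S100a9 had log2 changes of 0.33, 0.32 and 0.25, and Ltf, Lcn2 and Fpr1 of -0.37, -0.33 and -0.28. Beside the changes with IL-33 at 4 h, the untreated difference was about as large for Ltf (-0.37 and -0.35), smaller for S100a8 (0.32 and -0.51) and Elane (0.33 and -0.78), and near 0 for Mpo (0.01 and -0.43). The plot of changes shows the 5 comparisons side by side.

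**Figure D4:**
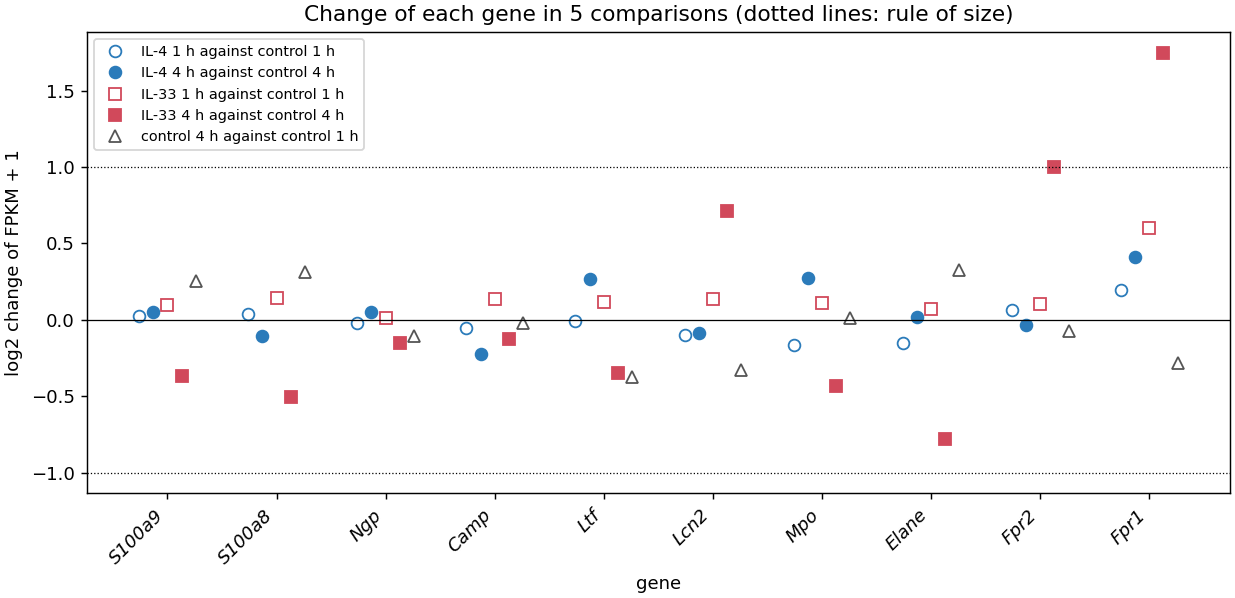
Log2 change of FPKM + 1 for each of the 10 genes in 5 comparisons (circles IL-4, squares IL-33, filled at 4 h, triangles untreated 4 h against 1 h), 1 library against 1. Fpr1 with IL-33 at 4 h (1.75) is the one point clearly past the dotted lines at 1 and -1, and Fpr2 lies at 0.998.

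The authors' deposited tables hold a test of reads between 1 library and another, which is no test of the treatments. They mark 4 changes of the 10 genes as significant. The share of all genes so marked was not counted, so these marks do not set the 10 genes apart from the rest. In the authors' deposited table of IL-33 at 4 h these are Fpr1 (q-value 3.64e-05) and Fpr2 (0.0456). For IL-4 at 4 h the authors' deposited table marks Ltf (q-value 2.75e-04) and Mpo (0.00552), with log2 changes of 0.26 and 0.27 here. Elane with IL-33 at 4 h, with a change of -0.78 here, is not marked in the authors' deposited table (0.173). The authors' deposited list holds 1593 regulated genes, beside 22548 gene symbols in the deposited tables. It holds 3 of the 10, namely Fpr1, Ltf and Mpo, and does not hold Fpr2.

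The wider gene lists give the same genes their context. Their counts of calls stand beside 4.15% of all genes higher and 1.38% lower with IL-33 at 4 h. Their counts of negative changes stand beside 53.5% of all genes compared. Of 6 primary granule genes, 5 reached 1 FPKM, and all 5 had negative changes with IL-33 at 4 h (median -0.50). One was lower, Prss57, a serine protease of the same granules, at 5.52 against 14.6 FPKM (-1.26), and Prtn3 (proteinase 3) stood at 29.7 against 42.5 (-0.50). Of 11 secondary and tertiary granule genes, 8 had negative and 3 positive changes, with none past the rule (median -0.18). Besides Lcn2, the positive ones were Pglyrp1, a peptidoglycan-binding protein, at 1539.7 against 1269 FPKM (0.28), and Hp (haptoglobin), at 26.5 against 15.1 (0.77). Hp is named because its value was seen. Olfm4 (olfactomedin 4), at 221 against 333 FPKM (-0.59), was among the negative ones.

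Of 10 surface genes compared, 2 were higher with IL-33 at 4 h, Fpr1 and Trem1, a receptor that amplifies inflammatory signals, at 17.5 against 6.18 FPKM (1.37). Of the most abundant genes of the list, the Fc receptor gene Fcgr3 stood at 707 against 694 FPKM (0.03) and the integrin gene Itgam at 473 against 597 (-0.34). The name of the late cytosolic list does not mean that every protein in it is cytosolic. Among its 10 genes, 9 had negative changes, where 53.5% of all genes compared did. Retnlg, for example, stood at 211 against 342 FPKM (-0.70). The lipolysis inhibitor gene G0s2 was higher, at 29.7 against 8.56 (1.68). G0s2 was also higher with IL-33 at 1 h (25.9 against 12.0 FPKM, 1.05), as were 2.36% of all genes compared. With IL-4, none of these 4 lists had a gene past the rule, where at most 0.646% of all genes were higher and 0.358% lower. Some genes stand in several lists, and Ly6g, a widely used neutrophil surface marker, had no row in the deposited tables.

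For the question of other cells in the culture, the levels were set beside those of eosinophil transcripts. S100a9 was 11.9 to 14.4 times less abundant than Prg2, while both S100 genes stood above Epx (2158 FPKM) and Ccr3 (533 FPKM) in untreated cells of 1 h. In bulk RNA, fewer cells of a type and less RNA per cell cannot be told apart, and a level from a few neutrophil-lineage or monocyte cells cannot be told apart from a low level in the eosinophils themselves. With IL-33 at 4 h, the S100 genes and the granule genes among the 10 other than Lcn2 had negative changes. In the wider secondary granule list, Pglyrp1 (0.28) and Hp (0.77) were positive as well. Of 10 eosinophil genes, 9 had negative changes, with a median of -0.14, where 53.5% of all genes compared had negative ones. Epx, the eosinophil peroxidase, stood at 1327 against 1920.2 FPKM (-0.53), Prg2 at 41838 against 44745 (-0.10) and Ccr3, the eotaxin receptor, at 399.7 against 414 (-0.05). The list ran from -0.89 to 0.07, and its one positive value was that of the ribonuclease gene Ear1. All 10 genes but Fpr1, Fpr2 and Lcn2 lay within this range, whereas Prss57 (-1.26) lay below it, and the primary granule median (-0.50) was below the eosinophil median.

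Markers of monocytes and macrophages stand beside the Fpr1 and Fpr2 values, since those cells also make both receptors. Of 14 such genes, 3 were higher with IL-33 at 4 h, the lipopolysaccharide co-receptor gene Cd14 (207 against 44.6 FPKM, 2.19), Csf1r (217 against 92.6, 1.22) and Mrc1 (10.8 against 4.85, 1.02). The share of all genes compared that were higher was 4.15%. Mrc1 was also higher with IL-4 at 4 h (15.1 against 5.12 FPKM, 1.39), as were 0.646% of all genes compared. The list as a whole had 8 negative changes and a median of -0.11, where 53.5% of all genes compared had negative changes. The negative ones included Ms4a7 (75.1 against 80.3 FPKM, -0.10) and Ccr2 (6.74 against 12.0, -0.75), the latter named as the lowest. The sum of the list was 2439 FPKM against 1836. Over the 6 libraries the sum ran from 1932 to 3315 FPKM, and no gene of the list was listed at 0. Untreated, it was 3307 FPKM at 1 h and 1938 at 4 h in the IL-4 tables. The sum of 2439 with IL-33 at 4 h thus lay below the untreated sum of 1 h, from another table. The sum was led by Ly6c2, at 1057 against 860 FPKM with IL-33 at 4 h (0.30), whose reads may be shared with its close relative Ly6c1. At 1 h the sum was 3189.7 FPKM with IL-33 against 3125, with Cd14 alone higher (178 against 86.5), where 2.36% of all genes compared were higher. The part of these cells in the rise of Fpr1 was not tested. Mast cell and basophil genes (median -0.17) and erythroid and megakaryocyte genes (-0.42) had none past the rule, and of the 6 lymphoid genes compared 1 was higher, Klrb1c (7.07 against 1.85 FPKM).

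**Figure D5:**
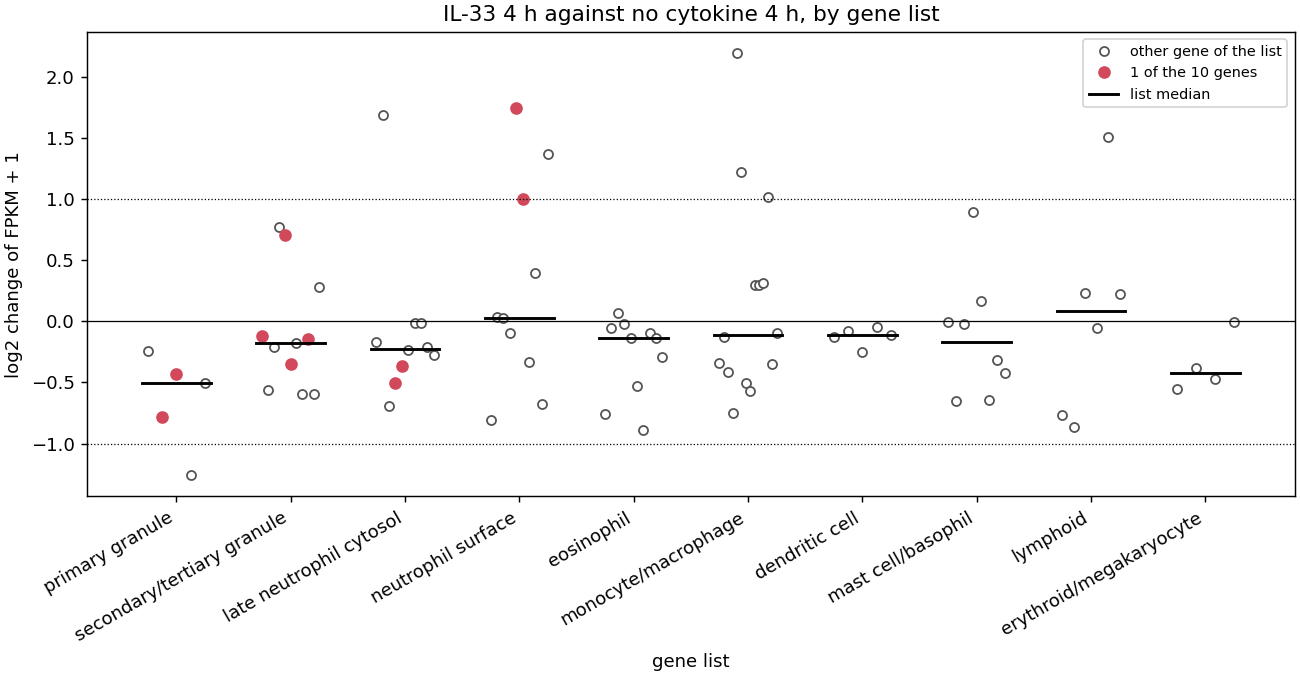
Log2 change of FPKM + 1 with IL-33 at 4 h for each gene of 10 lists that reached 1 FPKM, with the 10 genes in red and a bar at the list median. All 5 primary granule genes lie below 0 (median -0.50), where 53.5% of all genes compared do, and the surface list spreads from -0.80 to 1.75.

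The genes closest to Fpr1 in their 4 changes against the untreated library were Arrdc4, an arrestin-domain gene (distance 0.213 on the log2 scale), Klrb1b, a lectin-like receptor gene (0.222), and Plk3, a stress-linked kinase gene (0.258), of 7566 genes considered. Arrdc4 had log2 changes of 0.73 and 1.86 with IL-33 at 1 h and 4 h, and 0.07 and 0.38 with IL-4. For S100a8 the closest were Reps2 (0.0469), Uxs1 (0.0663) and Npl (0.0687). Their changes with IL-33 at 4 h were -0.47, -0.48 and -0.50, against -0.51 for S100a8. These distances rest on 4 changes that share 2 untreated libraries and describe likeness only.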

How the data were processed

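RNA of 6 libraries was analysed, 1 per group. The values are FPKM per RefSeq transcript, deposited by the authors in 4 tables of 1 treated and 1 untreated library each. TopHat 1.4.1, Cuffdiff 1.2.1 and build mm9 are named in the submitters' processing notes; for trimming, the RefSeq release and reads with several hits, the settings are not given in the sources used here. Values called q-values and the log2 fold changes of the regulated-gene list are the authors' deposited values and were copied only where named.

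Transcripts of a symbol were summed, and of symbols at several loci the one of highest total FPKM was kept (28702 transcripts, 22548 symbols). The change was log2((FPKM + 1) / (FPKM + 1)), which understates low genes; genes with at least 1 FPKM in either library were compared, and the rule of size was an absolute log2 change of 1. Relative depth came from the modal ratio of low values, and read numbers from transcript lengths of GENCODE M21 (GRCm38), so both are estimates. Only the calling of genes as higher or lower was tried on simulated data, with changes set well past the rule. The read estimates, list sums and distances were not tested in this way. Named genes were the 10 genes, of the other lists the members past the rule and up to 4 of highest level in the untreated 4 h library, Prg2, Epx and Ccr3, and the 3 nearest to Fpr1 and S100a8 by Euclidean distance over 4 changes, among genes reaching 5 FPKM and without small RNA or predicted symbols. The 10 genes and the lists were chosen with earlier results of these data known. Python 3.11.15 with numpy 2.4.6, pandas 2.3.3 and matplotlib 3.10.9 was used.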

Additional observations from a re-analysis of the deposited data

How the results depend on the processing

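Alternatives were run for each of the 5 comparisons, covering pseudocounts of 0.1 and 5, no filter, a filter of 5 FPKM, the transcript of highest total FPKM in place of the sum, median-centred scaling, and the control of the other time or the control columns of the other tables. With a pseudocount of 0.1, 2 of the 10 genes were higher with IL-33 at 4 h in place of 1, because Fpr2 came to 1.05. No other count of genes higher or lower differed from its main value. Of 385 single changes and medians under the alternatives, 384 kept their side of the rule. This total includes 55 each for the choice of transcript, for no filter and for the filter of 5 FPKM. Those values could not differ from the main ones, since each gene had 1 transcript and stood above 5 FPKM in every library. Among the main values, only Fpr1 with IL-33 at 4 h was past the rule. Most others lay well below it, so that they kept their side shows little. The other tables' controls are the same untreated libraries at nearly equal scale factors (0.945 and 0.947), so the comparison between them could hardly differ. Signs below the rule were less stable. The untreated library of the other time turned 3 of the 10 positive changes with IL-33 at 1 h negative (S100a8 -0.18, S100a9 -0.16, Elane -0.26). It also changed the sign of S100a8 (-0.27), S100a9 (-0.23), Ngp (0.08), Ltf (0.36) and Lcn2 (0.23) with IL-4 at 1 h, and of S100a8 (0.21), Ngp (-0.06) and Ltf (-0.11) with IL-4 at 4 h. With IL-33 at 4 h no sign changed, while Lcn2 came to 0.39, S100a8 to -0.19, S100a9 to -0.11, Elane to -0.45, Ngp to -0.25 and Ltf to -0.72, and Fpr1 stayed past the rule at 1.47. Median-centring changed the sign of Ngp and Ltf with IL-4 at 1 h (0.00088 and 0.01) and of Mpo between the untreated libraries (-0.06). Every gene had 1 transcript, so the choice of transcript could not alter its value. Median-centring removed at most 0.08 log2. With 1 library per group, no library could be left out and no paired analysis was possible because no group has a second library.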

Other observations

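Genes around the 10 were read from lists of binding partners, protease inhibitors and granulocyte transcription factors. Anxa1, whose protein annexin A1 is a known FPR2 ligand, stood at 393 FPKM with IL-33 at 4 h against 606 (log2 change -0.62), and at 708 against 675 at 1 h (0.07). Gnai3, a G protein subunit of the family that the formyl peptide receptors couple to, stood at 158 against 113 FPKM (0.48), and Gnai2 at 624 against 575 (0.12). Cd36, a scavenger receptor gene, stood at 29.98 against 30.2 FPKM (-0.01). Of 6 partner genes compared, none was past the rule in any of the 5 comparisons. The shares of all genes called higher or lower ran from 0.351% to 4.15%, so no call among 6 genes says little about the partners. Of the 6 formyl peptide receptor genes with a row, only Fpr1 and Fpr2 reached 1 FPKM in any library, while Fpr3 stayed at 0.193 to 0.539 and the other 3 were listed at 0 throughout.

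Among 9 protease inhibitor genes compared, the serpin gene Serpina3g was higher with IL-33 at 4 h (27.9 against 2.26 FPKM, 3.15), as were 4.15% of all genes. It was also higher with IL-4 at 4 h (8.19 against 2.38, 1.44), as were 0.646% of all genes. Slpi, an inhibitor of neutrophil elastase, had changes between -0.23 and 0.12 over the 5 comparisons. Cebpe, the C/EBP factor needed for secondary granules in neutrophils and also made by eosinophils, stood at 392 against 539 FPKM with IL-33 at 1 h (-0.46) and at 484 against 606 at 4 h (-0.32).

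Trem1 differed more between the untreated libraries than with either cytokine, at 29.4 FPKM at 1 h and 6.53 at 4 h (-2.01). Its rise with IL-33 at 4 h thus started from the lower of the 2 untreated values, and 17.5 FPKM with IL-33 at 4 h was below the untreated level of 1 h in another table. Gfi1, a repressor in granulocyte precursors, went the other way without cytokine, from 1.57 to 5.82 FPKM (1.41). Between the untreated libraries, 0.879% of all genes compared were higher and 1.56% lower at 4 h.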
